A study of Mus musculus with 4 samples.

Results

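The 9 genes described here encode the core of the Hedgehog signalling pathway. They are the ligand genes *Shh* and *Ihh*, the receptor gene *Ptch1*, the ligand-binding antagonist gene *Hhip*, the transducer gene *Smo*, the inhibitor gene *Sufu* and the transcription factor genes *Gli1*, *Gli2* and *Gli3*. They were chosen by name, with earlier results of these data known, from the 23284 gene symbols of the count files. Of the 9 genes, 8 passed the filter on low counts that left 15645 genes to be tested, and *Shh* did not. RNA was sequenced from limb cells of E13.5 C57BL/6J mouse embryos, sorted by FACS for the GFP of the *Osr1* GCE allele, a knock-in that places eGFP and CreERt2 in the *Osr1* gene. In every pair of values, replicate 1 of a genotype stands before replicate 2. The heterozygotes were 2 *Osr1* GCE/+ embryos, with 1 knock-in and 1 intact allele, and the homozygotes 2 *Osr1* GCE/GCE embryos, with no intact allele. All sorted cells thus carried GFP and CreERt2, and the GCE/+ cells are not wild-type cells. Embryo sex is not in the labels.

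Hedgehog ligands bind the receptor PTCH1, which otherwise keeps the membrane protein SMO inactive at the primary cilium. Active SMO releases the GLI transcription factors from SUFU. GLI2 acts mainly as an activator and GLI3 mainly as a repressor, while *Gli1*, *Ptch1* and *Hhip* are transcribed in response to the pathway and serve as its readouts. In the limb, *Shh* is expressed in the posterior mesenchyme of the early bud and *Ihh* later in differentiating cartilage.

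The total counts of the samples ran from 52121596 to 61402140, and 3 counts amounted to 0.0490 to 0.0574 CPM (counts scaled to a common library total, with TMM normalization). *Osr1* had 81.9 and 79.1 CPM in the heterozygotes against 11.9 and 13.9 CPM in the homozygotes. Its log2 fold change was -2.64, with a standard error (SE) of 0.11 and an adjusted p of 5.94e-05. Adjusted p-values are Benjamini-Hochberg values from the quasi-likelihood test of edgeR, called at 0.1. They rest only on the spread between these embryos, with an estimate of that spread borrowed from all genes. All 11 markers of connective tissue fibroblasts were detected, led by *Col3a1* with a mean of 8224 CPM. Of 12 cartilage markers, 5 were higher in GCE/GCE cells at an adjusted p under 0.1, as was 1 of 12 muscle markers, where 0.895% of all tested genes were. Of 12 macrophage markers, 11 were lower, where 0.927% of all tested genes were. *Xist*, transcribed from the inactive X chromosome of females, reached 1142 CPM in GCE/GCE replicate 1 and no more than 2.63 CPM elsewhere, and was named after its values were seen.

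Promoter windows of 300 bases, from 250 bases upstream to 50 bases downstream of a RefSeq start site in GRCm38.p6, were available for 7 of the 9 genes. Those of *Ptch1* and *Hhip* are shown because these are the response genes of the pathway for which a window was at hand. The *Ptch1* window is chr13:63565686-63565985 and the *Hhip* window is chr8:80057959-80058258, both on the minus strand and written 5′ to 3′. The *Ptch1* window lies inside the span given for the gene below, because the RefSeq start differs from the outermost annotated one. Capitals mark the 6 letters GGGTGG or, on the other strand, CCACCC, the core of the motif that GLI proteins bind.
Ptch1: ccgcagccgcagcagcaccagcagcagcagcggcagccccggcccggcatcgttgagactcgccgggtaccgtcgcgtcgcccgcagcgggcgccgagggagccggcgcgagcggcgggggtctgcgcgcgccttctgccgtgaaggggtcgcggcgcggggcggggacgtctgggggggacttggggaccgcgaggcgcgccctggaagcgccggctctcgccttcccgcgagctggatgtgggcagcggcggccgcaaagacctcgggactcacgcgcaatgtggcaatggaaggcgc
Hhip: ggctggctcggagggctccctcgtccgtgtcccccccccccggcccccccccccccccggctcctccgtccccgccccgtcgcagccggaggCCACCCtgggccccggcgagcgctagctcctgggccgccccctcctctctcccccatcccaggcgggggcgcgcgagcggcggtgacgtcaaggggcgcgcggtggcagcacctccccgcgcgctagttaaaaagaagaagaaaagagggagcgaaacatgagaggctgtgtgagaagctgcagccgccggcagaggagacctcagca

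The whole motif of 9 letters, TGGGTGGTC or GACCACCCA, was in none of the 7 windows and in 0.253% of all 32851 windows. The core, which lies within the whole motif, was in 5 of the 7 windows and in 31.5% of all windows. In the *Hhip* window it began 158 bases upstream of the start site on the opposite strand, and the *Ptch1* window held none. These matches are descriptions of letters in short windows and do not locate binding sites.

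Per length of transcript, the transducer and the GLI factors were the most abundant of the 9 mRNAs and the ligands the least. Levels between genes were compared as CPM per kb of the longest annotated transcript. *Smo* was first with 70.9 to 76.96 CPM per kb over the 4 samples. *Gli3* was next with a mean of 28.7 CPM per kb, followed by *Gli1* with 20.9 and *Gli2* with 19.0 CPM per kb. The ranges of *Gli1* and *Gli2* over the 4 samples overlapped, and *Gli1* was the higher of the pair in 3 of 4 samples. *Ptch1* followed with a mean of 9.56 CPM per kb and *Sufu* with 6.60 CPM per kb. Their ranges overlapped as well, although *Ptch1* was the higher in all 4 samples. *Hhip* had a mean of 2.13 CPM per kb and *Ihh* a mean of 0.556 CPM per kb. The remaining neighbours in this order did not overlap in any sample.

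**Figure D1:**
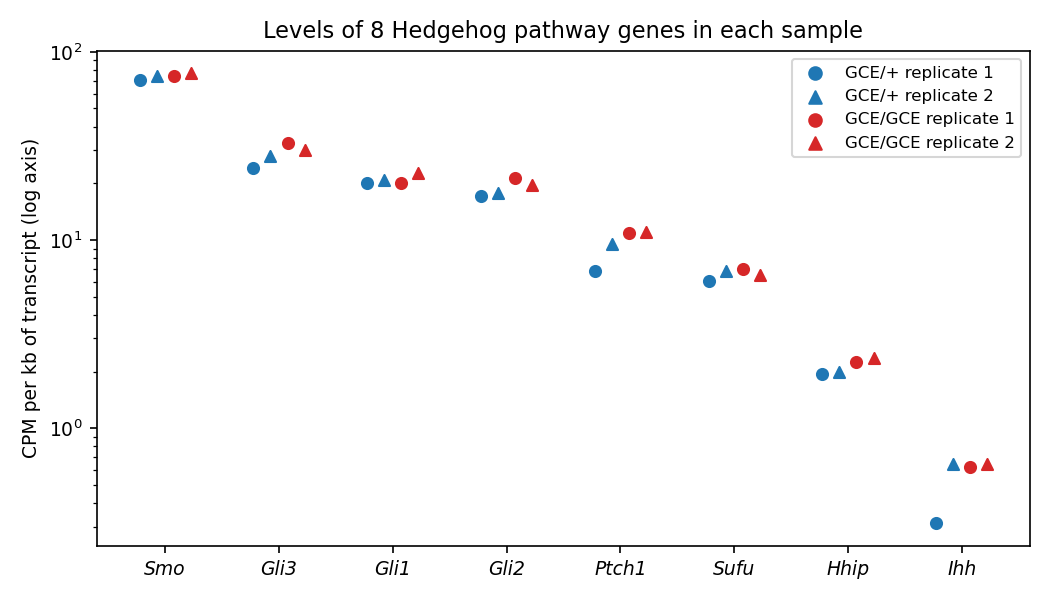
Level of each gene in CPM per kb of transcript, on a log axis, with 1 point for each of the 4 samples (blue, GCE/+; red, GCE/GCE; circles, replicate 1; triangles, replicate 2). *Smo* lies highest, with 70.9 to 76.96 CPM per kb, and *Ihh* lowest, with 0.313 to 0.649 CPM per kb. *Shh*, with 0 or 1 count in each sample, is not drawn.

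The ligand genes came first in the comparison of GCE/GCE with GCE/+ cells. *Shh* (GRCm38, chromosome 5, 28456815 to 28467256) had 0 and 1 count in GCE/+ replicates 1 and 2 and 1 and 0 counts in GCE/GCE replicates 1 and 2. All 4 values were under the 3 counts taken as the floor, so no fold change is given, and a difference between the genotypes was not detectable at this depth. *Dhh*, which encodes the third Hedgehog ligand and is known from Schwann cells, had 0.229 to 0.476 CPM in the 4 samples. The summed level of 7 Schwann cell markers was 21.9 and 25.5 CPM in the heterozygotes against 26.2 and 20.6 CPM in the homozygotes.

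*Ihh* (GRCm38, chromosome 1, 74945315 to 74951672) was counted 47 and 83 times in the heterozygotes and 89 and 98 times in the homozygotes. These amount to 0.772 and 1.59 CPM in the heterozygotes against 1.53 and 1.60 CPM in the homozygotes. GCE/+ replicate 1 was the low sample, and the other three lay within a narrow band, so the genotypes overlapped. GCE/GCE against GCE/+ gave a log2 fold change of 0.43 (SE 0.33, edgeR adjusted p = 0.79), with a 95% interval from -0.32 to 1.18 that was not adjusted for the number of genes. Without GCE/+ replicate 1 it was -0.025, and without GCE/+ replicate 2 it was 1.02, so the value rested on which heterozygous embryo was kept. Genes of prehypertrophic and hypertrophic cartilage, where *Ihh* is transcribed, summed to 151 and 128 CPM in the heterozygotes against 135 and 126 CPM in the homozygotes, a list of 8 in which *Col10a1* and *Mmp13* had means below 1 CPM. *Pth1r*, with a mean of 69.7 CPM, made up much of this sum, and the members did not move together. *Panx3* had 0.788 and 2.08 CPM in the heterozygotes against 2.79 and 2.68 CPM in the homozygotes, with GCE/+ replicate 1 lowest, while *Spp1* had 14.8 and 12.1 CPM against 9.40 and 8.53 CPM. Neither passed, with edgeR adjusted p = 0.386 for *Panx3* and 0.131 for *Spp1*, and the members of this list other than *Pth1r* were named after their values were seen. The 12 cartilage markers summed to 713 and 1095 CPM in the heterozygotes against 1521 and 1663 CPM in the homozygotes, with GCE/+ replicate 1 lowest as for *Ihh*. The part of the cartilage markers in the values of *Ihh* was not tested, and in bulk samples fewer cells of a type and less RNA per cell cannot be told apart.

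*Ptch1* (GRCm38, chromosome 13, 63508328 to 63573598) encodes the receptor. It had 52.7 and 73.3 CPM in the heterozygotes against 84.6 and 85.0 CPM in the homozygotes. Both GCE/GCE samples lay above both GCE/+ samples, and the GCE/+ embryos differed from each other by 0.48 on the log2 scale, against 0.01 between the GCE/GCE embryos. The log2 fold change was 0.43 (SE 0.14, unadjusted p = 0.0146, edgeR adjusted p = 0.267), a 1.35-fold difference that did not pass the threshold of 0.1. Without GCE/+ replicate 2 it was 0.69 with an adjusted p of 0.00945, and without GCE/GCE replicate 1 it was 0.43 with an edgeR adjusted p of 0.0769. Without GCE/+ replicate 1 it was 0.20 with an edgeR adjusted p of 0.502. The order of the 4 samples by *Ptch1*, and also by *Hhip* and *Smo*, was the same as their order by the summed cartilage markers. The cartilage markers cannot be told apart from the genotypes here, and their part in the values of these genes was not tested.

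*Hhip* (GRCm38, chromosome 8, 79965851 to 80058006) encodes a membrane protein that binds Hedgehog ligands and limits their reach. It had 17.6 and 18.0 CPM in the heterozygotes against 20.4 and 21.3 CPM in the homozygotes. The genotypes did not overlap, and the embryos of each genotype differed by less than 0.1 on the log2 scale. The log2 fold change of 0.23 (SE 0.10) missed the threshold, with an edgeR adjusted p of 0.506.

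*Smo* (GRCm38, chromosome 6, 29735503 to 29761365) had 268 and 282 CPM in the heterozygotes against 283 and 291 CPM in the homozygotes. The lowest homozygous value was barely above the highest heterozygous one. Its log2 fold change was 0.06 (SE 0.08) with a 95% interval from -0.13 to 0.25, which is 0.915-fold to 1.19-fold. Without GCE/+ replicate 1 it was 0.020 and without GCE/+ replicate 2 it was 0.098. *Sufu* (GRCm38, chromosome 19, 46396896 to 46488804) had 27.2 and 31.0 CPM in the heterozygotes against 31.6 and 29.6 CPM in the homozygotes. The genotypes overlapped, and the log2 fold change was 0.07 (SE 0.10) with a 95% interval from -0.17 to 0.31. Without GCE/+ replicate 1 the value for *Sufu* was -0.024. Neither gene was near the threshold, with edgeR adjusted p = 0.922 for *Smo* and 0.93 for *Sufu*.

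*Gli1* (GRCm38, chromosome 10, 127329882 to 127341974) is itself a transcriptional response to Hedgehog signals. It had 81.1 and 84.7 CPM in the heterozygotes against 81.9 and 92.2 CPM in the homozygotes. The first homozygote lay between both heterozygotes, so the genotypes overlapped. For *Gli1* the log2 fold change came to 0.07 (SE 0.09, edgeR adjusted p = 0.915), with a 95% interval from -0.13 to 0.27, or 0.911-fold to 1.21-fold. Without GCE/GCE replicate 2 it was -0.019. The response genes *Ptch1*, *Hhip* and *Gli1* thus had log2 fold changes of 0.43, 0.23 and 0.07. Within each sample, the ratio of *Ptch1* to *Gli1* per kb was 0.341 and 0.454 in the heterozygotes against 0.542 and 0.484 in the homozygotes. These ratios did not overlap between the genotypes. Among single genes, 19.2% of all tested genes did not overlap with GCE/GCE higher and 19.1% with GCE/GCE lower. No such share was taken over ratios. The transcripts differ in length, with 7725 bases for *Ptch1* and 4057 bases for *Gli1*. The difference between the responses of both genes was not tested.

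*Gli2* (GRCm38, chromosome 1, 118834132 to 119053619) had 114 and 118 CPM in the heterozygotes against 142 and 129 CPM in the homozygotes. Both GCE/GCE samples were the higher ones. It differed by a log2 fold change of 0.23 (SE 0.08, unadjusted p = 0.0253, edgeR adjusted p = 0.348). *Gli3* (GRCm38, chromosome 13, 15463235 to 15730026) had 197 and 227 CPM in the heterozygotes against 268 and 247 CPM in the homozygotes. Again the genotypes did not overlap, with GCE/+ replicate 1 the lowest sample and GCE/GCE replicate 1 the highest. The log2 fold change was 0.28 (SE 0.10, unadjusted p = 0.0206, edgeR adjusted p = 0.317). Without GCE/+ replicate 1 it was 0.17, and without GCE/+ replicate 2 it was 0.38 and passed the threshold, with an edgeR adjusted p of 0.0693. The ratio of *Gli3*, mainly a repressor, to *Gli2*, mainly an activator, was 1.40 and 1.57 per kb in the heterozygotes against 1.53 and 1.55 per kb in the homozygotes, and the genotypes overlapped.

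**Figure D2:**
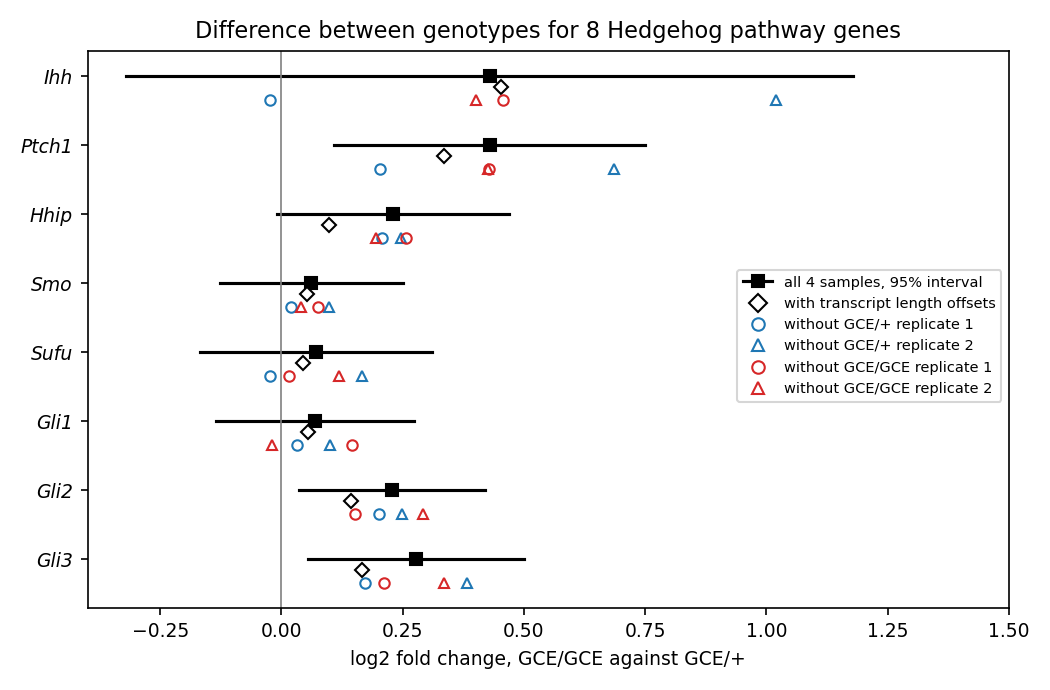
Log2 fold change of GCE/GCE against GCE/+ cells for the 8 tested genes. Black squares and lines are the value over all 4 samples and its unadjusted 95% interval, open diamonds the value with transcript length offsets, and coloured open symbols the value without 1 sample. The intervals of *Ptch1*, *Gli2* and *Gli3* lie above 0, and without 1 sample *Ihh* spans -0.025 to 1.02.

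Over the 9 genes, none passed an adjusted p of 0.1 in edgeR or in DESeq2, where 1.82% (0.895% higher and 0.927% lower) and 3.25% of all tested genes passed. None passed either with RLE normalization, where 1.72% of all genes did, upper quartile normalization (1.51%), no filter on low counts (0.665%), at least 10 counts per sample (1.93%), the legacy fit (1.78%), the replicate block (1.85%), length offsets with that block (3.18%) or a threshold of 0.05 (0.831%). An unadjusted p under 0.05 was reached by 3 of 8 tested genes in both tools, *Ptch1*, *Gli2* and *Gli3*, all of them higher, against 5.62% of all tested genes in that direction in edgeR. The 9 genes were chosen with earlier results of these data known, and all tested genes were not matched to them for transcript length. The shares are therefore descriptions only. The log2 fold change was above 0 for 8 of 8, against 50.9% of all tested genes. Both GCE/GCE samples were above both GCE/+ samples for 5 of 8, *Ptch1*, *Hhip*, *Smo*, *Gli2* and *Gli3*, against 19.2% of all tested genes. The median log2 fold change was 0.23, against 0.0033 over all tested genes. Without GCE/+ replicate 1 this median was 0.10 and the log2 fold change was above 0 for 6 of 8. Leaving out an embryo also moved the genes with an unadjusted p under 0.05, to *Ptch1* alone without GCE/+ replicate 1 or without GCE/GCE replicate 1, and to *Ptch1*, *Gli2*, *Gli3* and *Ihh* without GCE/+ replicate 2. The calls depended on single embryos. Without GCE/+ replicate 2, *Ptch1* and *Gli3* passed, where 6.03% of all genes did, and without GCE/GCE replicate 1 *Ptch1* passed, where 4.7% of all genes did. None passed without GCE/+ replicate 1, where 1.25% did, or without GCE/GCE replicate 2, where 2.57% did.

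Transcript length moved with these values. Over all tested genes, the median log2 fold change was -0.04 among the genes with the shortest transcripts (lowest decile) and 0.12 among those with the longest (highest decile). *Hhip*, *Gli3*, *Ptch1* and *Gli2*, with transcripts of 9074, 8170, 7725 and 6637 bases, are the longest of the 9 genes and were 4 of the 5 whose genotypes did not overlap. With offsets that remove a smooth trend on transcript length from each sample, the log2 fold change was 0.33 for *Ptch1*, 0.17 for *Gli3*, 0.14 for *Gli2* and 0.10 for *Hhip*, and the median of the 8 genes was 0.12. The values of *Gli3*, *Gli2* and *Hhip* thus became smaller by more than 1.5 times. No gene of the 9 passed with these offsets, when 1.83% of all genes did, and *Ptch1* and *Gli3* kept an unadjusted edgeR p under 0.05. The part of transcript length in the differences between the genotypes was not tested.

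**Figure D3:**
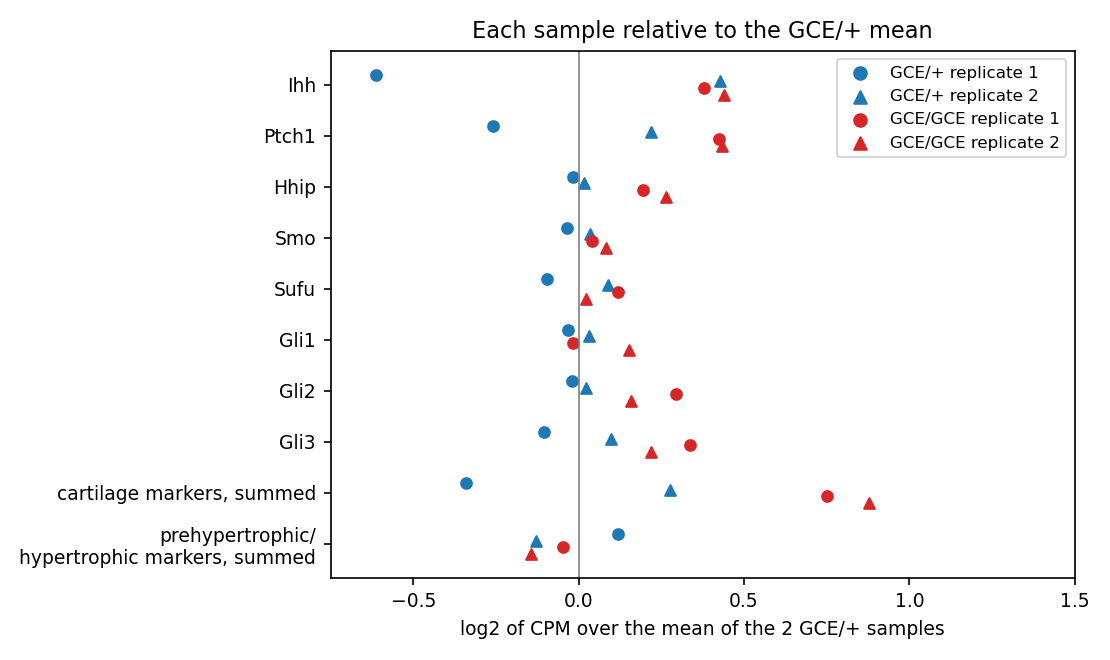
Log2 of each sample's CPM over the mean of the 2 GCE/+ samples, for the 8 tested genes and for the summed markers of cartilage (12 genes) and of prehypertrophic and hypertrophic cartilage (8 genes). For *Ptch1* and for the cartilage markers, GCE/+ replicate 1 is lowest (-0.26 and -0.34), GCE/+ replicate 2 next (0.22 and 0.28) and both GCE/GCE samples highest. *Hhip* and *Smo* have the same order of samples.

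The 62 further genes of the pathway were grouped by role. On all 4 samples, none passed an adjusted p of 0.1 in edgeR without a replicate block or length offsets. Of these, 61 were tested, and 6 were higher and 2 lower at an unadjusted p under 0.05, against 5.62% and 4.86% of all tested genes. DESeq2 passed *Scube2* and *Tbx2*, where 3.25% of all genes passed, and edgeR with a replicate block passed *Scube2*, where 1.85% did. Both were picked out after their values were seen.

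Of 6 genes for ligand supply, 5 were tested and *Disp1* was listed at 0 counts in all samples, which is not read as absent expression, since the part of the gene model used for counting was not tested. The most abundant were *Scube1* and *Scube3*, which encode secreted proteins of a family that helps to release Hedgehog ligands. *Scube1* had 149 and 187 CPM in the heterozygotes against 165 and 185 CPM in the homozygotes. *Scube3* had 41.0 and 62.1 CPM in the heterozygotes against 56.8 and 58.3 CPM in the homozygotes, and the genotypes overlapped for both. *Scube2* had 14.0 and 10.1 CPM in the heterozygotes against 19.9 and 16.6 CPM in the homozygotes, without overlap, a log2 fold change of 0.60 (SE 0.17, edgeR adjusted p = 0.192). With the replicate block its adjusted p was under the threshold, as it was without GCE/+ replicate 1 and without GCE/GCE replicate 2.

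Of the 8 genes for co-receptors and ligand binding, 4 had a log2 fold change above 0 and 4 below, with a median of 0.017. *Gpc3*, which encodes a glypican that binds Hedgehog ligands, was the most abundant with 1896 and 1866 CPM in the heterozygotes against 1856 and 1843 CPM in the homozygotes, a log2 fold change of -0.024 (SE 0.12). *Gas1*, which encodes a co-receptor, had 337 and 330.1 CPM in the heterozygotes against 359 and 379.8 CPM in the homozygotes, a log2 fold change of 0.15 (SE 0.09). The level of *Gas1* mRNA per length was above that of *Ptch1* itself, with 119 CPM per kb on average against 9.56 CPM per kb.

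Among 15 genes for the cilium and SMO transport, 12 were above 0 and 3 below, with a median log2 fold change of 0.035. Of all tested genes, 50.9% were above 0. Both GCE/GCE samples were above both GCE/+ samples for 3 of the 15 and below them for 3, against 19.2% and 19.1% of all tested genes. *Kif3a*, a motor subunit of ciliary transport, had 84.7 and 92.5 CPM in the heterozygotes against 88.7 and 95.9 CPM in the homozygotes. *Adrbk1* (*Grk2*), which encodes a kinase that acts in SMO signalling, had 89.8 and 87.8 CPM in the heterozygotes against 82.6 and 80.2 CPM in the homozygotes. The genotypes overlapped for *Kif3a* and not for *Adrbk1*, whose log2 fold change was -0.13 (SE 0.08). Among 15 genes for GLI processing, the log2 fold changes ran from -0.07 to 0.17. *Gnas*, which encodes a stimulatory G protein subunit upstream of protein kinase A, had 2460.1 and 2166 CPM in the heterozygotes against 2301 and 2158 CPM in the homozygotes. *Prkar1a*, a regulatory subunit of protein kinase A, had 460 and 475 CPM in the heterozygotes against 485 and 490.3 CPM in the homozygotes.

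The 18 further targets divided evenly, with 9 above 0 and 9 below and a median log2 fold change of -0.0089. *Ccnd2* and *Ccnd1*, which encode D-type cyclins, were the most abundant. *Ccnd2* had 663 and 809 CPM in the heterozygotes against 847 and 821 CPM in the homozygotes, a log2 fold change of 0.18 (SE 0.12). *Ccnd1* had 237 and 271 CPM in the heterozygotes against 264 and 302 CPM in the homozygotes. *Tbx2*, which encodes a transcription factor of the limb bud, had 29.6 and 30.0 CPM in the heterozygotes against 38.1 and 38.3 CPM in the homozygotes. Its genotypes did not overlap, and its log2 fold change was 0.36 (SE 0.09, edgeR adjusted p = 0.127). *Tbx2* passed the threshold in DESeq2, with length offsets, with length offsets and the replicate block, and without GCE/+ replicate 2. *Tbx2* and, among the ligand genes, *Dhh* and *Disp1* were named after their values were seen.

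**Figure D4:**
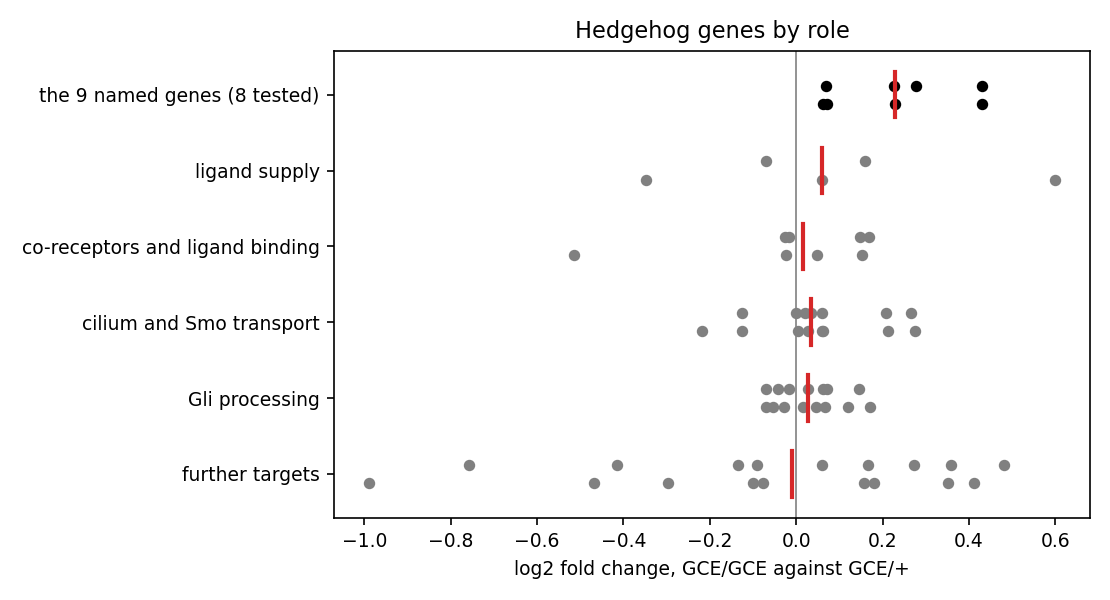
Log2 fold change of GCE/GCE against GCE/+ cells for each tested gene of the 9 named genes (black) and of the 5 further lists (grey), with the median of each list as a red line. The medians are 0.23 for the named genes, 0.06 for ligand supply, 0.017 for co-receptors and ligand binding, 0.035 for the cilium and SMO transport, 0.027 for GLI processing, and -0.0089 for the further targets.

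Likeness to 3 of the genes was measured as the root mean square difference of log2 CPM, each gene centred on its own mean over the 4 samples, against 13467 genes that averaged 1 CPM or more. The closest to *Ptch1* were *Cyfip2* (0.016), *Fgd6* (0.025) and *Ryr1* (0.025), and 12 genes lay within 0.05. *Cyfip2* had 33.4 and 47.9 CPM in the heterozygotes against 53.8 and 54.7 CPM in the homozygotes. Its low value in GCE/+ replicate 1 follows from its choice by likeness to *Ptch1*. The closest to *Hhip* were *Chst15*, *Nudt11* and *Gpm6b* (0.0098, 0.012 and 0.013), with 205 genes within 0.05. The closest to *Gli1* were *Sap18*, *Mccc2* and *2610524H06Rik* (0.0026, 0.0049 and 0.0050), with 874 genes within 0.05, so the flat pattern of *Gli1* was shared by many genes.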

How the data were processed

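RNA of GFP-expressing limb cells from 4 E13.5 embryos was prepared with the TruSeq RNA Library Preparation Kit v2 and sequenced as 50-bp paired-end reads. The authors aligned them to mm9 (TopHat2, UCSC genes) and deposited raw counts of fragments per gene, made with HTSeq in its intersection-strict mode. Versions are not given in the sources used here. The samples held 52121596 to 61402140 counts, where a floor of 3 counts covers only counting error. Genotypes and replicate numbers came from the sample labels, and nothing in them ties same-numbered embryos across genotypes.

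After filterByExpr and TMM normalization, homozygotes were compared with heterozygotes by the two-sided quasi-likelihood test of edgeR 4.0.16 in R 4.3.3. Adjusted p-values are Benjamini-Hochberg values over 15645 genes, called at 0.1. SE was derived from the F statistic. With 2 samples against 2, the smallest p of an exact permutation test is 0.333, and edgeR borrows its estimate of spread from all genes. The procedure was tested on simulated data of this design, where the false share of calls was above the threshold of 0.1 and most of the smaller changes put in were missed. DESeq2 1.42.0, which the authors used, was an alternative, beside other normalizations and filters, a legacy fit, a replicate block, transcript length offsets, a threshold of 0.05 and leaving out each sample. CPM were divided by the longest transcript of each gene in GENCODE M21 (GRCm38), to which 98% of symbols were matched. Coordinates are from GRCm38 and none were converted from mm9. Promoter windows are from RefSeq. Figures were made with matplotlib 3.10.9.

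The 9 genes and the lists were chosen with earlier results of these data known. Named genes are the 9 genes, *Osr1*, the 2 most abundant genes per kb of each pathway list and any past the threshold, the 3 genes most like *Gli1*, *Ptch1* and *Hhip*, and the most abundant gene of marker lists. Others are said to be named after their values were seen. Summed levels over the GCE/+ and then the GCE/GCE samples were 25.0 to 28.4 and 29.5 to 31.0 CPM for 10 epidermis markers, 363.6 to 365 and 157 to 226 CPM for 12 macrophage markers, 139.6 to 162 and 174 to 186 CPM for 12 muscle markers, 96.5 to 120.2 and 80.8 to 97.2 CPM for 8 endothelial markers, 174 to 511 and 312 to 341 CPM for 7 red blood cell markers, of which *Hba-a1* was listed at 0 counts (the part of the gene model in this was not tested), and 21482 to 23743 and 18140 to 20744 CPM for 11 fibroblast markers.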

Additional observations from a re-analysis of the deposited data

How the results depend on the processing

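The log2 fold changes of the 8 tested Hedgehog genes kept their direction and their side of the threshold in 98 of 104 alternative values, and that of *Osr1* in all 13, between -2.76 and -2.54. Every value that did not keep these came from leaving out a sample. A kept direction is not a kept size, since *Hhip* had 0.23 in the main fit and 0.10 with length offsets. Leaving out each sample gave -0.025 to 1.02 for *Ihh* and -0.024 to 0.17 for *Sufu*, both lowest without GCE/+ replicate 1, and -0.019 to 0.15 for *Gli1*, lowest without GCE/GCE replicate 2. *Ptch1* passed without GCE/+ replicate 2 and without GCE/GCE replicate 1, and *Gli3* without GCE/+ replicate 2. None of the 9 genes passed in any fit on all 4 samples. Leaving out each sample in turn gave 0 to 2 genes past the threshold among the 9, 1 to 8 among the further pathway genes (none on all samples) and 199 to 961 over all genes (285 on all samples). The lone sample of a genotype was there assumed to vary like the others. The bracketed values on all samples are those of the main edgeR fit, with TMM normalization and without a replicate block or length offsets. Over all genes, 127 passed without the filter on low counts, 502 with DESeq2, 130 at a threshold of 0.05, and 497 with length offsets and the replicate block together. Of the further pathway genes, DESeq2 passed 2, where 3.25% of all genes passed. Length offsets passed 1, where 1.83% of all genes passed, and length offsets with the replicate block passed 2, where 3.18% did. The replicate block alone passed 1 of the further pathway genes and none of the 9 genes, where 1.85% of all genes passed. The deviations of same-numbered samples had a correlation of -0.018 over 11180 genes, so the numbers were not taken to pair the embryos. The block changed no other call on the genes named here. Without division by transcript length, 2 of the 9 genes changed rank, since *Gli2* then preceded *Gli1*. The cause of these moves was not tested. With 2 embryos per genotype, differences of the size seen for *Gli1*, *Smo* and *Sufu* are within the spread between samples, and *Shh* is below the floor of 3 counts.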
